A study of Mus musculus with 12 samples.

Results

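Lipg, Id2, Lgals3bp, Nos2, Saa3, Prnp and Fam20c are 7 genes with large rises in blood neutrophils after lipopolysaccharide (LPS). They were found by symbol among the 9374 genes of the table, and all 7 were listed. The genes were selected on their LPS against saline differences in these same 12 libraries, so those differences are a description: no p-value is given for them, and counts of calls on them carry no evidence. Neutrophils were isolated from the blood of female mice given LPS (0.5 mg/kg) or saline 16 hours earlier. WT-Saline and WT-LPS came from wild-type mice. KO-Saline and KO-LPS came from mice of the line Hmgb1ΔMye, a name used for loss of Hmgb1 in myeloid cells, and the labels give neither the promoter behind the deletion nor the age of the mice. Each of the 4 groups held 3 libraries, and nothing in the labels says that they came from separate mice, and a p-value then measures the spread between these libraries only.

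LPS, a component of the outer membrane of Gram-negative bacteria, is sensed by Toll-like receptor 4 and starts transcription through NF-kB and, by way of interferon, through STAT and IRF factors. In blood, LPS also changes which neutrophils circulate, as the marrow releases younger cells. The 7 genes have different roles. Lipg encodes endothelial lipase, a secreted phospholipase that acts on high-density lipoprotein. Saa3 is an acute phase apolipoprotein made by macrophages and other local cells, and Lgals3bp is a secreted scavenger receptor protein that binds galectin-3. Nos2 is the inducible enzyme that makes nitric oxide from arginine. Id2 is a helix-loop-helix protein without a DNA-binding region that holds E proteins off DNA. Prnp encodes the prion protein, a copper-binding protein on the cell surface, and Fam20c a kinase of the secretory pathway that phosphorylates secreted proteins.

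Libraries held 399702 to 526757 reads in the table, so that 0 reads in a library allowed up to 5.58 to 8.0 CPM (reads scaled to library size; a floor of 3 reads, covering counting error only). Known neutrophil transcripts were present in every group: all 10 neutrophil markers were listed, with a summed level of 12998 to 21318 CPM per library. Reads of Hmgb1, the targeted gene, numbered 100 in the 6 WT libraries and 101 in the 6 libraries labelled KO. Since reads can come from exons outside the deleted part, this does not check the labels, and the libraries are called KO-labelled. The library labelled KO-LPS replicate 1 stood apart from the other LPS libraries and lay near the saline libraries for most genes that LPS changed in WT. Why it did so, a wrong label included, was not tested, and each KO-LPS mean of 3 libraries includes it. Of the 630 genes that LPS raised in WT, 489 (77.6%) had their lowest level of the 6 LPS libraries in KO-LPS replicate 1, against 16 to 55 in each of the other 5. Fitted differences, ratios and bounds of the 7 genes that rest on KO-LPS are therefore given with and without it.

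The upstream sequences of 5 members were at hand in RefSeq (GRCm38.p6), those of Prnp, Fam20c, Saa3, Lgals3bp and Id2. Saa3 and Prnp are shown because they had no read in any of the 6 saline libraries and because theirs held matches to the 5 motifs searched on both strands, by letters alone. Capitals mark the matches in the 250 bases before the start site, which are Saa3 at chr7:46715677-46715926 on the minus strand and Prnp at chr2:131909678-131909927 on the plus strand.
Saa3: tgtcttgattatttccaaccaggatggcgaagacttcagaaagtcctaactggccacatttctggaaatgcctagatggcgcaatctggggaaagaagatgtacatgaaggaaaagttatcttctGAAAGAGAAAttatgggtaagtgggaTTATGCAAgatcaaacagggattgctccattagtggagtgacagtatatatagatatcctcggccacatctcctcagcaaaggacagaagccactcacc
Prnp: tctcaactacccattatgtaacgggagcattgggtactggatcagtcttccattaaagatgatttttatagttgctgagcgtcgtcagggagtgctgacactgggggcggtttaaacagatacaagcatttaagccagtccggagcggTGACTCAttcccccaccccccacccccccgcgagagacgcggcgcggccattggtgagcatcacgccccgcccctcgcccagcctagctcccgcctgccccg
In Saa3 the capitals are GAAAGAGAAA, a match to the interferon response element that starts 125 bases before the start site, and TTATGCAA, the reverse complement of a C/EBP core match (TTGCNNAA) that starts 99 bases before it. In Prnp they are TGACTCA, an AP-1 match (TGANTCA) that starts 102 bases before the start site. Of 32851 promoters of 300 bases, 3.44% held the interferon response element, 10.8% the C/EBP core and 7.81% the AP-1 motif. The kappa B motif (8.46% of promoters) and the STAT motif TTCNNNGAA (8.30%) had no match in the 5 sequences, which says only that these letters are not in these windows. No motif of the 5 was found upstream of Fam20c, Lgals3bp or Id2.

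The 7 genes together had 8, 7 and 10 reads in the WT-Saline libraries and 632, 633 and 705 in the WT-LPS libraries, replicates 1 to 3 in each. KO-Saline had 40, 10 and 1, and KO-LPS 58, 680 and 759. Each gene was higher in every WT-LPS library than in every WT-Saline library, and limma called all 7 as higher in WT at an adjusted p under 0.05, where 6.72% of all genes were called higher and 30.6% of all genes had groups without overlap. In KO-labelled libraries all 7 were called higher, against 1.99% of all genes, and the groups did not overlap for 5 of 7, against 16.6%. These counts follow from the choice of the genes, and nothing is read from them. The median of the 7 fitted log2 differences was 5.33 in WT and 5.02 in KO-labelled libraries, where the median of all genes was 0.06 and 0.09. With genes absent in saline set at their lower bound and those with 1 to 3 saline reads at their pooled ratio, the medians were 3.52 and 5.11. These medians mix unlike measures and cannot be compared between the genotypes. Lgals3bp entered as a bound in WT (3.52) but, with 1 saline read, as a pooled ratio in KO-labelled libraries (5.29). Its fitted log2 differences were 6.13 and 3.75. Without KO-LPS replicate 1, the KO-labelled medians were 5.98 as fitted and 5.71 with bounds and ratios. In bulk RNA, more cells with a transcript and more transcript per cell cannot be told apart.

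**Figure D1:**
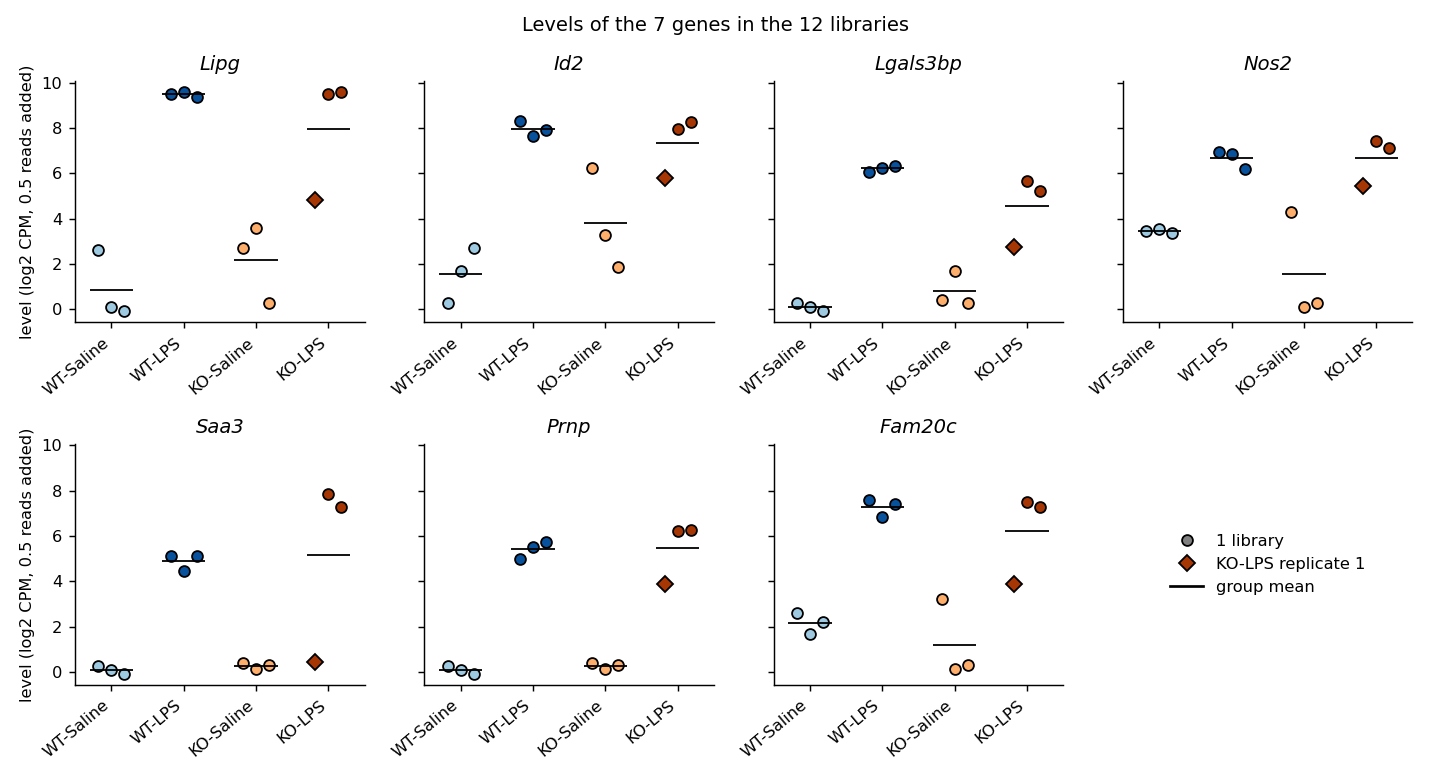
Level of each of the 7 genes (log2 CPM with 0.5 reads added) in the 12 libraries, by group, with a point for each library, a bar for the group mean and a diamond for KO-LPS replicate 1. All 3 WT-LPS points lie above all 3 WT-Saline points for each gene, and the diamond lies below the other 5 LPS points in all 7 panels.

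Among the secreted proteins, Lipg was the most abundant of the 7 after LPS. Its place is chromosome 18, 74939322 to 74961263, minus strand (GRCm38). It has 10 exon blocks and is protein-coding, as all 7 are. Lipg had 2, 0 and 0 reads in WT-Saline replicates 1 to 3, against 308, 365 and 358 reads after LPS. KO-Saline held 2, 5 and 0 Lipg reads, against 10, 295 and 357 for KO-LPS. Thus 5 of the 6 LPS libraries held a similar number and KO-LPS replicate 1 lay near, but above, all 6 saline libraries. In WT the level was 1.61 ± 2.80 CPM with saline and 721.7 ± 52.7 CPM with LPS, and in KO-labelled libraries 5.37 ± 5.43 and 507 ± 416 CPM (SD, n = 3). Pooled WT reads gave a ratio of 512 (95% exact counting interval 141 to 4230), and the fitted log2 difference in KO-labelled libraries was 5.78 ± 0.91 (SE), or 7.35 ± 0.72 without KO-LPS replicate 1. By fitted log2 difference, Lipg ranked 2 of 9374 genes in WT and 1 in KO-labelled libraries.

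Saa3 (chromosome 7, 46711998 to 46715700, minus strand) had the widest gap between KO-LPS replicates. It had no read in any of the 6 saline libraries, 14, 10 and 18 in WT-LPS, and 0, 92 and 72 in KO-LPS. KO-LPS replicates 2 and 3 lay above all 3 WT-LPS libraries and replicate 1 below them. The level was 29.2 ± 7.06 CPM in WT-LPS and 127 ± 116 in KO-LPS (SD, n = 3), against a floor of 3 reads per library in saline. Saa3 was at least 4.57-fold higher after LPS in WT and at least 17.6-fold higher in KO-labelled libraries, or at least 26.4-fold without KO-LPS replicate 1. Its call in WT was lost without each of WT-LPS replicates 1 and 3, and its call in KO-labelled libraries without each KO-Saline replicate and each of KO-LPS replicates 2 and 3. Saa3 is one of several related serum amyloid A genes, so that the assignment of its reads may be uncertain.

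Lgals3bp (chromosome 11, 118392751 to 118402092, minus strand) had no read in WT-Saline and 28, 35 and 43 reads in WT-LPS. The KO-labelled libraries held 0, 1 and 0 Lgals3bp reads with saline and 2, 20 and 17 with LPS. All 3 KO-LPS libraries were below all 3 WT-LPS libraries. Its level was 73.4 ± 6.78 CPM in WT-LPS and 30.4 ± 22.6 in KO-LPS (SD, n = 3). In WT it was at least 11.5-fold higher after LPS, and pooled KO-labelled reads gave a ratio of 39.2 (6.63 to 1588), or 53.2 (8.97 to 2157) without KO-LPS replicate 1. The call in KO-labelled libraries was lost without each of KO-Saline replicates 1 and 3 and KO-LPS replicates 2 and 3.

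Fam20c, the secretory pathway kinase (chromosome 5, 138754514 to 138810077, plus strand), had 2, 1 and 2 reads in WT with saline and 82, 54 and 90 with LPS. KO-labelled libraries held 3, 0 and 0 Fam20c reads with saline and 5, 74 and 71 with LPS. LPS and saline libraries did not overlap in either genotype, although KO-LPS replicate 1 came close to KO-Saline replicate 1. The fitted log2 difference in WT was 5.12 ± 0.89 (SE), and pooled KO-labelled reads gave a ratio of 50.3 (16.9 to 246), or 69.5 (23.3 to 341) without KO-LPS replicate 1. Its call in KO-labelled libraries was lost without KO-LPS replicate 2.

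Nos2, the nitric oxide synthase (chromosome 11, 78920787 to 78960254, plus strand), had reads in all WT-Saline libraries, 4, 5 and 5, and 52, 54 and 39 in WT-LPS. For KO-Saline the reads were 7, 0 and 0, and for KO-LPS 16, 70 and 64. With saline the level was 9.85 ± 0.65 CPM in WT and 6.12 ± 10.6 CPM in KO-labelled libraries, and with LPS 103 ± 27.0 and 118 ± 67.2 (SD, n = 3). Fitted log2 differences were 3.22 ± 0.81 in WT and 5.11 ± 0.81 in KO-labelled libraries (SE), the latter being 5.71 ± 0.85 without KO-LPS replicate 1. Nos2 ranked 171 of all genes by this difference in WT, the lowest rank of the 7, and 6 in KO-labelled libraries. KO-Saline replicates 2 and 3 had no Nos2 read, and the KO-labelled difference and rank depend on them. Pooled reads gave a ratio of 10.3 (5.93 to 19.3) in WT. In KO-labelled libraries the ratio was 21.5 (10.2 to 54.5), or 27.5 (13.0 to 69.8) without KO-LPS replicate 1.

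Id2, the inhibitor of E proteins (chromosome 12, 25093799 to 25097140, minus strand), had 0, 1 and 3 reads in WT with saline and 135, 94 and 129 with LPS. For KO-Saline the reads were 28, 4 and 1, and for KO-LPS 20, 99 and 143. KO-Saline replicate 1, at 73.5 CPM, was above KO-LPS replicate 1, at 53.4 CPM, so that the KO-labelled groups overlapped. For Id2 the fitted log2 difference was 6.41 ± 0.78 in WT and 3.53 ± 0.78 in KO-labelled libraries (SE), or 4.31 ± 0.77 without KO-LPS replicate 1. The KO call was lost without each of KO-Saline replicates 2 and 3 and KO-LPS replicates 2 and 3. KO-Saline replicate 1 had the highest level of the 6 saline libraries for Id2, Nos2 and Fam20c.

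Prnp, the prion protein gene (chromosome 2, 131909928 to 131938429, plus strand), had no read in any saline library, 13, 21 and 28 in WT-LPS, and 5, 30 and 35 in KO-LPS. It was the member with the least reads, 132 in all. Even KO-LPS replicate 1 was above the saline libraries, while the other 2 KO-LPS libraries were above all WT-LPS libraries. Prnp was at least 6.62-fold higher after LPS in WT and at least 7.49-fold higher in KO-labelled libraries (at least 10.3-fold without KO-LPS replicate 1), where the call was lost without KO-LPS replicate 2. Its exons overlap those of the annotated gene Prn on the same strand by 145 bases, so its reads may be shared. No exon of the 7 genes overlaps an exon on the opposite strand in GENCODE M21, the strand setting of the counting not being given in the sources used here.

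Per kilobase of annotated exon, the mean level in WT-LPS was 153 ± 11.2 CPM per kb for Lipg and 104 ± 25.4 for Id2 (SD, n = 3). The next 3 lay close together, Lgals3bp at 25.8 ± 2.38, Fam20c at 24.1 ± 6.21 and Nos2 at 23.4 ± 6.12, and did not differ beyond their spread. Prnp at 18.1 ± 4.58 and Saa3 at 11.2 ± 2.71 were the lowest. The exon length joins all annotated transcripts of a gene, so levels per kb depend on which transcripts are made, which was not examined. In CPM without this scaling, Prnp (42.4) and Saa3 (29.2) were also the lowest in WT-LPS. In KO-LPS replicates 2 and 3 the mean level per kb was 158 for Lipg, 113 for Id2, 73.2 for Saa3, 35.1 for Nos2, 31.8 for Prnp, 25.4 for Fam20c and 15.1 for Lgals3bp. Saa3 was thus the lowest in WT-LPS but above Nos2, Prnp, Fam20c and Lgals3bp in these 2 libraries, for which Lgals3bp was the lowest.

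How KO-LPS replicate 1 differed from KO-LPS replicates 2 and 3 was not the same for each gene. All 7 were below the other 5 LPS libraries in replicate 1, as were 23.0% of all genes. In replicate 1, 5 of the 7 were above all 6 saline libraries, the exceptions being Id2 and Saa3. Of these 5, Lgals3bp had 2 reads, under the floor of 3, against 1 read in KO-Saline replicate 2. Fam20c had 5 reads against 3 in KO-Saline replicate 1. The share of all genes above the saline libraries was not computed, and nothing is read from this count. Lipg in replicate 1 stood at 3.57% of its pooled level in replicates 2 and 3 (95% exact counting interval 1.70% to 6.60%). The share was 8.02% for Fam20c (2.57% to 19.1%), 12.6% for Lgals3bp (1.47% to 48.7%) and 17.9% for Prnp (5.62% to 43.9%). Id2 kept 19.2% (11.5% to 30.3%) and Nos2 27.8% (15.4% to 46.8%), and the intervals of both lay above that of Lipg. Saa3 had 0 reads in replicate 1, and its mean in replicates 2 and 3 was at least 23.8-fold higher. Replicates 2 and 3 lay close together, the widest gap between them being 0.55 log2 units, for Saa3. Replicate 1 minus the mean of replicates 2 and 3 ran from -7.14 log2 units for Saa3 to -1.82 for Nos2.

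To set the genes on a common scale, each KO-LPS library was placed between the KO-Saline mean (0) and that mean plus the WT difference between LPS and saline (1), on the log2 scale. Replicate 1 had a median position of 0.32 over the 7 genes, with 1.12 in both other replicates. Over the 630 genes called higher in WT the medians were 0.18, 0.77 and 0.72 for replicates 1, 2 and 3, and over the 465 called lower 0.04, 0.82 and 0.78. For interferon-stimulated genes replicate 1 lay closer to the others: of 30 listed in the table, 17 were called higher in WT, with medians of 0.51, 0.61 and 0.58. Whether the gap differs between these gene sets was not tested. Nos2 lay beyond 1 in all 3 libraries (1.21, 1.82 and 1.72), on a scale where 2 KO-Saline libraries had no read of it. The median over the 7 is a description, since these genes were selected with KO-LPS in view.

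**Figure D2:**
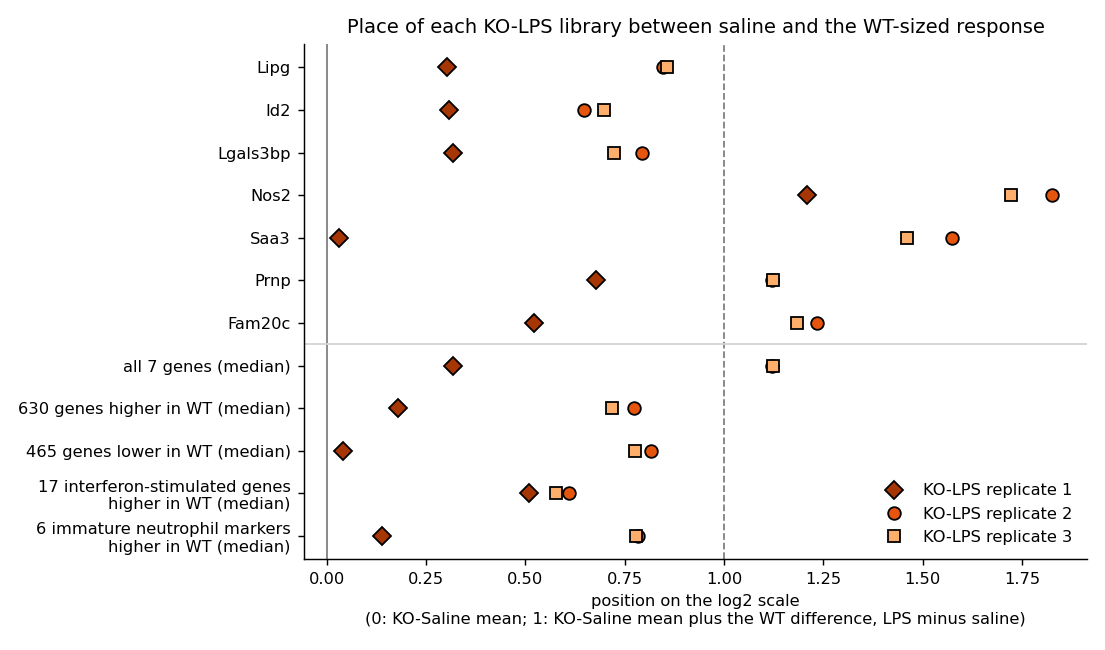
Position of KO-LPS replicates 1, 2 and 3 (diamond, circle, square) on a log2 scale where 0 is the KO-Saline mean and 1 is that mean plus the WT difference between LPS and saline, for each of the 7 genes and as medians over gene sets called in WT. Replicate 1 lies left of the other replicates in each line, and its gap is small for the 17 interferon-stimulated genes (0.51 against 0.61 and 0.58).

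As a sum, markers of younger neutrophils moved in the same libraries, though not every marker did. Of the 10 markers of immature neutrophils, 7 were listed, among them Ngp, Lcn2, Chil3 and Camp, while Mpo, Elane and Ctsg were not. Lcn2 is also an acute phase gene. Their summed level was 395 to 631 CPM in WT-Saline, 788 to 1535 in KO-Saline, 9410 to 14109 in WT-LPS, and 1422, 13249 and 12895 for KO-LPS replicates 1 to 3. For the 6 of them called higher in WT, the median positions of KO-LPS replicates 1 to 3 were 0.14, 0.78 and 0.78. Lcn2, Ngp and Chil3 held most of the reads in the LPS libraries. In WT, Ltf had 14, 8 and 20 reads with saline and 245, 60 and 221 with LPS, and Camp 0, 2 and 0 against 27, 9 and 35. In KO-labelled libraries Ltf had 114, 56 and 16 reads with saline and 59, 76 and 50 with LPS. Camp had 30, 13 and 0 there with saline and 10, 24 and 26 with LPS. Prtn3 had 0 to 8 reads in each of the 12 libraries. Monocyte and macrophage markers, of which 5 of 14 were listed, had a summed level of 423 to 545 CPM in WT-Saline, 593 to 683 in WT-LPS, 441 to 494 in KO-Saline, with 432, 646 and 517 CPM for KO-LPS replicates 1 to 3. Within this sum Ly6c2 had 8 to 27 reads in WT-Saline and 171 to 204 in WT-LPS, with 24, 158 and 105 in KO-LPS replicates 1 to 3, while Csf1r went from 108 to 124 reads in WT-Saline to 53 to 80 in WT-LPS. Of 12 endothelial markers 3 were listed, Pecam1, Tek and Egfl7, with 31.5 to 50.3 CPM in WT-Saline, 35.6 to 83.6 in WT-LPS, 39.1 to 76.1 in KO-Saline, with 32.0, 91.3 and 55.7 CPM for KO-LPS replicates 1 to 3. Pecam1 had 0 reads in all 3 KO-LPS libraries, and Cdh5, Kdr and Vwf were not listed. The B cell marker Cd79a, the 1 of 8 listed, stood at 9.68 to 29.6 CPM in WT-Saline, 7.30 to 28.9 in KO-Saline, 101 to 134 in WT-LPS, and 34.7, 104 and 101 for KO-LPS replicates 1 to 3. For platelets 3 of 8 markers were listed, with summed levels of 523 to 779 CPM in WT-Saline, 651 to 837 in KO-Saline, 161 to 255 in WT-LPS, and 496, 217 and 247 for KO-LPS replicates 1 to 3. The part of these cells in the levels of the 7 genes was not tested.

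The comparison of KO-labelled with WT libraries in saline asked whether the genes differed before LPS. The saline libraries of both genotypes also entered the choice of the 7, so these values are partly shaped by it too. None of the 7 was called by limma, and 2 of the 7 had an unadjusted p under 0.05, Id2 and Nos2. Of all 9374 genes, 643 had an unadjusted p under 0.05. Over all genes 1 (0.0107%), Ecm1, was called, which is not among the 7 and was named after its value was seen. For Id2 the log2 difference was 2.24 ± 0.78 (SE; adjusted p = 0.553), and KO-Saline replicate 1 alone held 28 of the 33 KO-Saline reads. The difference for Nos2 was -1.88 ± 0.81 (adjusted p = 0.666) and for Lipg 1.33 ± 0.91 (adjusted p = 0.844). Saa3 and Prnp had no read in either group and Lgals3bp 1 read in all, so no difference was detectable at this depth. The saline groups overlapped for all 7, where 12.1% of all genes did not overlap.

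In LPS, the KO-labelled and WT libraries were compared on the same libraries that had been used to choose the genes, so these values are partly shaped by that choice. None of the 7 was called by limma, 0 of the 7 had an unadjusted p under 0.05, and over all genes 0 (0%) were called, with 471 at an unadjusted p under 0.05. The same model with voom weights called 0 of the 7 and 1 gene of all. Lgals3bp had the largest difference in size, -1.67 ± 0.98 on the log2 scale (SE; adjusted p = 0.949), and was the member of the 7 whose LPS groups did not overlap, as was found for 9.79% of all genes. Without KO-LPS replicate 1 its difference was -0.77 ± 1.07. Lipg differed by -1.53 ± 0.91 (adjusted p = 0.949) with all libraries and by 0.05 ± 0.72 without KO-LPS replicate 1. For Fam20c the values were -1.06 ± 0.89 (adjusted p = 0.966) and 0.11 ± 0.84, and for Id2 -0.63 ± 0.78 (adjusted p = 0.969) and 0.14 ± 0.77.

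In this comparison Saa3, Nos2 and Prnp had no negative difference with all libraries. Leaving out KO-LPS replicate 1 raised the difference of all 7. For Saa3 the difference between KO-labelled and WT libraries in LPS was 0.28 ± 1.30 (SE, adjusted p = 0.996) with all libraries. It was 2.67 ± 1.08 without KO-LPS replicate 1, still not called. Nos2 went from 0.00 ± 0.81 (adjusted p = 0.999) to 0.61 ± 0.85, and Prnp from 0.04 ± 0.96 (adjusted p = 0.998) to 0.83 ± 1.09. The median of the 7 was -0.63 with all libraries and 0.14 without KO-LPS replicate 1, with a median of all genes of -0.01 and 0.02. The difference between the LPS responses (KO-labelled minus WT), which is made of the differences that chose the genes, is given as a value only. It was -2.88 ± 1.11 for Id2, -2.86 ± 1.29 for Lipg, -2.38 ± 1.39 for Lgals3bp and 1.88 ± 1.15 for Nos2 (SE), and between -0.14 and 0.11 for Saa3, Prnp and Fam20c. Without KO-LPS replicate 1 it was -2.10 ± 1.03 for Id2, -1.28 ± 0.96 for Lipg, -1.48 ± 1.43 for Lgals3bp and 2.49 ± 1.14 for Nos2. Saa3 then stood at 2.49 ± 1.44, Fam20c at 1.07 ± 1.13 and Prnp at 0.65 ± 1.46, and the median of the 7 went from -0.14 to 0.65. Both Nos2 values depend on KO-Saline replicates 2 and 3, which had no read of it.

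**Figure D3:**
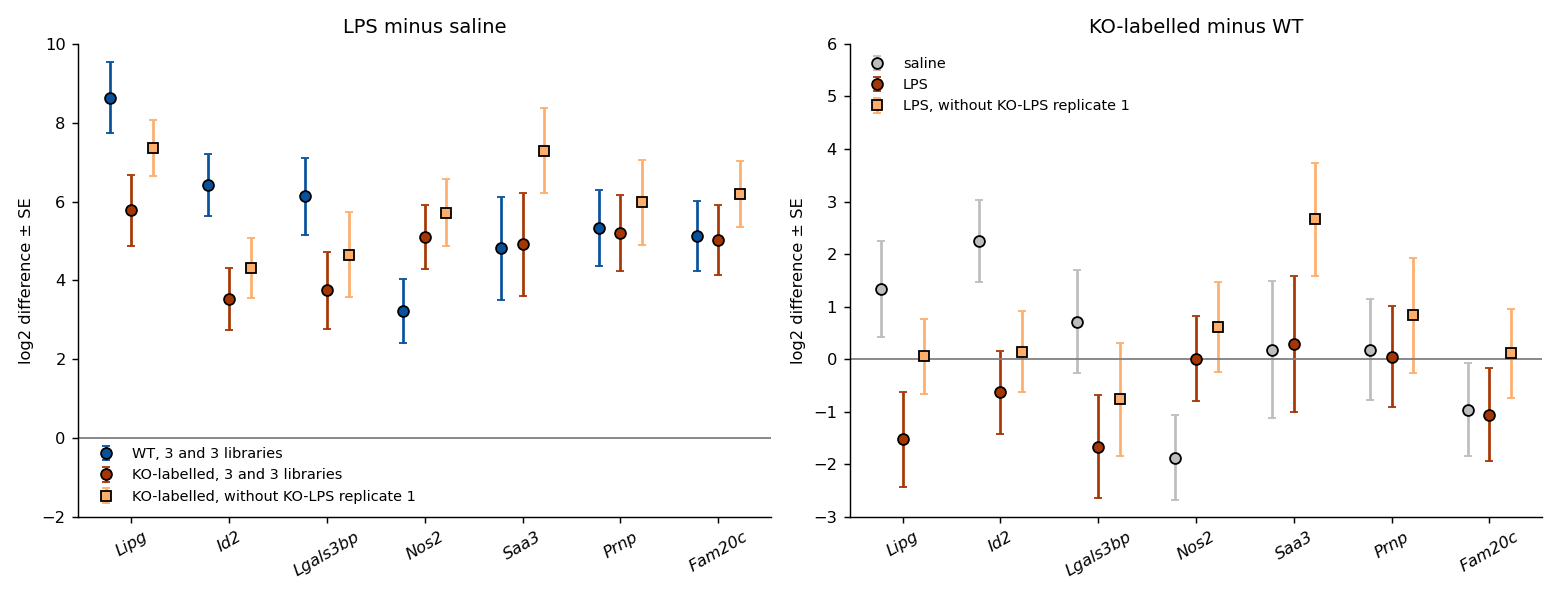
Fitted log2 differences with their standard errors for the 7 genes, on the left LPS minus saline in each genotype, on the right KO-labelled minus WT in saline and in LPS, with squares for fits without KO-LPS replicate 1. On the right, Lipg in LPS goes from -1.53 to 0.05 and Saa3 from 0.28 to 2.67 once that library is left out.

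Genes of the same families and pathways were taken from 7 lists, chosen for their relation to the members. Earlier results of these data were known when the lists were made, so the counts are a description. Of 122 listed genes, 52 were in the table, 45 of them not among the 7. LPS raised 13 of these 45 in WT and lowered 6, and 26 did not pass, where 6.72% and 4.96% of all genes were called higher and lower. In KO-labelled libraries 6 rose and 1 fell, against 1.99% and 1.35% of all genes, and 38 did not pass. The median log2 difference of the 45 was 0.51 in WT and 0.29 in KO-labelled libraries. Without each library in turn, 11 of the 19 WT calls and 1 of the 7 KO calls, that of Lcn2, held throughout. Of the 13 that rose in WT, 9 had their lowest LPS level in KO-LPS replicate 1. This was so for 489 of all 630 genes called higher in WT (77.6%) and for 23.0% of all genes, so nothing is read from it.

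Among 11 lipases and regulators beside Lipg, 2 rose and 1 fell in WT. Scarb1, which encodes the scavenger receptor for high-density lipoprotein, rose from 24.0 ± 27.7 to 300 ± 62.6 CPM in WT and from 66.5 ± 6.01 to 357 ± 84.1 in KO-labelled libraries (SD, n = 3), the second call being lost without KO-LPS replicate 2. Scarb1 had 109 reads in KO-LPS replicate 1 and 183 and 153 in replicates 2 and 3, a smaller gap than that of Lipg. Lpl, the lipoprotein lipase gene, had a log2 difference of 3.79 ± 1.11 in WT (adjusted p = 0.0225) and was not called once WT-Saline replicate 1 or 3, or WT-LPS replicate 2 or 3, was left out. Pltp, the phospholipid transfer protein gene, fell by 1.24 ± 0.37 (adjusted p = 0.0257) but was not called once WT-Saline replicate 1 or 2, or any WT-LPS replicate, was left out, and its exons overlap Ctsa on the other strand.

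Of 4 Id and E protein genes beside Id2, Id1, another inhibitor of E proteins, rose by 3.52 ± 0.98 in WT (adjusted p = 0.0168), a call lost without WT-Saline replicate 2 and without each WT-LPS replicate. Of 3 galectin genes beside Lgals3bp, 2 rose in WT. Lgals3, which encodes galectin-3, rose by 1.89 ± 0.34 (adjusted p = 0.000305) and in KO-labelled libraries had a difference of 0.61 ± 0.34 that did not pass. Lgals9 rose by 1.44 ± 0.34 in WT (adjusted p = 0.00472) and by 1.40 ± 0.34 in KO-labelled libraries (adjusted p = 0.0179), the second call not holding once KO-Saline or KO-LPS replicate 2 or 3 was left out.

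Of 6 nitric oxide and arginine genes beside Nos2, 1 rose and 1 fell in WT. Arg2, an arginase that uses the same substrate as Nos2, fell by 1.02 ± 0.25 (adjusted p = 0.00554), with exons that overlap Vti1b and Gm48780 on the other strand. Gch1, the first enzyme in the synthesis of the Nos2 cofactor tetrahydrobiopterin, had a difference of 2.59 ± 0.87 (adjusted p = 0.0497), which did not hold once any of 10 libraries was left out. Neither passed in KO-labelled libraries.

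Of 9 acute phase genes beside Saa3, 3 rose and 1 fell in WT, and the same 3 rose in KO-labelled libraries. Lcn2, the iron-scavenging lipocalin, rose by 4.13 ± 0.44 in WT (adjusted p = 6.26e-07) and by 2.64 ± 0.44 in KO-labelled libraries (adjusted p = 0.00125). C3, the central complement component, rose by 2.08 ± 0.40 (adjusted p = 0.000588) and 1.87 ± 0.40 (adjusted p = 0.0073), with 48 reads in KO-LPS replicate 1 against 323 and 283. Lbp, the LPS-binding protein gene, had no read in WT-Saline and 37.0 ± 1.05 CPM in WT-LPS (SD, n = 3). Its KO call (adjusted p = 0.0445) did not hold once any of 7 libraries was left out, nor did that of C3 once KO-Saline replicate 3 or KO-LPS replicate 2 or 3 was. Steap4, a metalloreductase gene, fell by 2.65 ± 0.66 in WT (adjusted p = 0.00687) but was not called once replicate 3 of either WT group was left out.

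Of 6 genes listed for partners of the prion protein, 3 rose in WT. Stip1, a co-chaperone that binds the prion protein, rose by 1.49 ± 0.28 in WT (adjusted p = 0.000556) and by 1.17 ± 0.28 in KO-labelled libraries (adjusted p = 0.0175), a call lost without each KO-Saline replicate and each of KO-LPS replicates 2 and 3. App, the amyloid precursor gene, rose by 1.03 ± 0.25 (adjusted p = 0.00516) and overlaps Gm49227 on the other strand. Adam10, a protease that sheds the prion protein, rose by 1.35 ± 0.42 (adjusted p = 0.0347) but was not called once any WT-Saline replicate, or WT-LPS replicate 2 or 3, was left out.

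In the list of secretory pathway kinases and their substrates, 3 of the 6 genes beside Fam20c fell in WT and 1 rose, while in KO-labelled libraries 1 fell and none rose. The median log2 difference of the 6 was -1.84 in WT and 0.29 in KO-labelled libraries. Fam20a, a pseudokinase that partners Fam20c, had a difference of 0.76 ± 1.06 in KO-labelled libraries, which did not pass, and went from 33.9 ± 7.97 to 2.73 ± 3.25 CPM in WT (SD, n = 3; adjusted p = 0.0241), and Pomk, a kinase of protein O-mannose, from 45.7 ± 38.1 to 2.64 ± 2.30 (adjusted p = 0.0225). Fam20a was not called once any WT-Saline replicate, or WT-LPS replicate 1 or 3, was left out, nor Pomk once replicate 1 of either WT group or WT-Saline replicate 2 was. Apoe, the apolipoprotein E gene, fell by 3.36 ± 0.73 in WT (adjusted p = 0.00232) and by 2.60 ± 0.73 in KO-labelled libraries (adjusted p = 0.0447), the second call not holding once any of 8 libraries was left out. Itgb1, the integrin beta 1 gene, rose by 2.31 ± 0.46 in WT (adjusted p = 0.000973).

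**Figure D4:**
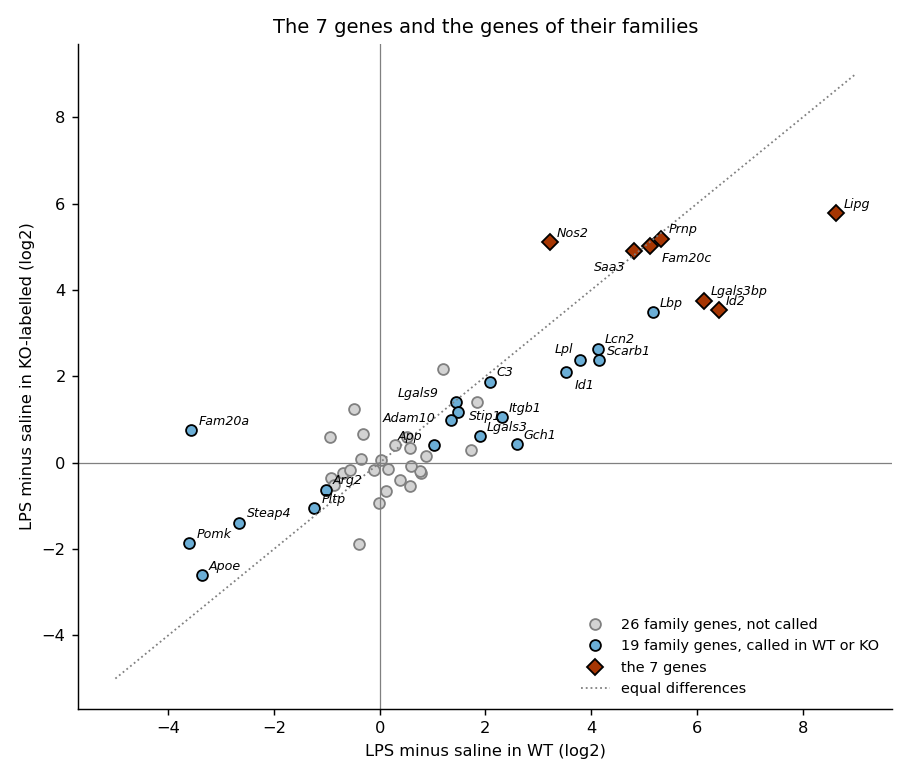
Fitted log2 difference between LPS and saline in WT (horizontal) and in KO-labelled libraries (vertical) for the 7 genes (diamonds) and 45 genes of their families (circles, blue where called in WT or in KO-labelled libraries), with a dotted line at equal differences. The 7 genes lie at the upper right, as they were chosen to, and Fam20a, Pomk and Apoe lie at the left.

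The genes most like each member over the 12 libraries were found by Pearson correlation of the log2 levels, among 4379 genes at or above the median level, as a description of libraries that share treatment and depth. Nearest to Lipg were Trpt1 (r = 0.98), whose exons overlap Fermt3 on the other strand, the circadian gene Clock (0.97) and the neutrophil surface antigen gene Cd177 (0.97). Cd177 had 49 reads in KO-LPS replicate 1 and 301 and 387 in replicates 2 and 3. Nearest to Id2 were the sulfhydryl oxidase gene Qsox1 (0.98, overlap with Gm37539), Wfdc21 (0.97) and the nucleic acid sensor gene Zbp1 (0.96). Nearest to Lgals3bp were the retinoic acid receptor gene Rarg (0.98), Pgam2 (0.98) and Ifitm6 (0.98). Rarg had 59 reads in KO-LPS replicate 1 and 341 and 385 in replicates 2 and 3, below its 654 to 921 reads in WT-LPS.

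For Nos2 the nearest genes were Oxa1l (0.97, overlap with Slc7a7), the p38 kinase gene Mapk13 (0.94) and Nrp (0.92), and for Fam20c they were the phosphatase gene Dusp16 (0.98), Mapk13 (0.97) and the uridine phosphorylase gene Upp1 (0.97). Saa3 was nearest to the mechanosensitive channel gene Piezo1 (0.96, overlap with Ctu2), the neutrophil collagenase gene Mmp8 (0.96) and Dnajc7 (0.96, overlap with Cnp and Nkiras2). Mmp8 had 150 reads in KO-LPS replicate 1 and 678 and 784 in replicates 2 and 3. Prnp was nearest to the Schlafen gene Slfn4 (0.97), Ifitm6 (0.97) and the histone methyltransferase gene Kmt5a (0.97). Among themselves the 7 genes had correlations of 0.79 to 0.98 over 21 pairs, which the choice of genes that LPS raised makes high. Some of these pairs were closer than genes listed above, such as Nos2 with Fam20c (0.95) and Lipg with Lgals3bp (0.98).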

How the data were processed

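The authors deposited 1 table of log2 values for 9374 genes by NCBI Gene ID in 12 libraries. From the values, these are log2 CPM with 0.5 reads added, since whole reads came back within 0.001 for 100% of values in each column. Per the submitters' processing notes the build was mm10. The aligner, counter and gene filter were not given in the sources used here. Symbols were found for 9372 IDs in RefSeq, and coordinates are 1-based from GENCODE M21 (GRCm38).

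The deposited log2 values were fitted with limma 3.58.1 (R 4.3.3): 4 group means, a mean-variance trend, two-sided tests, Benjamini-Hochberg adjustment over all genes and calls at an adjusted p under 0.05. The fit was also run on simulated data, where genes at or above the median read number were changed in WT-LPS only. No library stood apart there, so this does not cover the KO-labelled comparison or genes with fewer reads. A minimum of 1 in 3 libraries removed 0 genes. Read ratios carry 95% exact conditional intervals. Where a group had 0 reads, folds were computed against a floor of 3 reads per library. The named genes are the 7 members, called genes of the family lists and, outside the 7 and at or above the median level, the 3 genes most correlated with each member. Members and lists were chosen with earlier results of these data known.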

Additional observations from a re-analysis of the deposited data

How the results depend on the processing

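The ranges in this paragraph are over fits that each left out 1 of the 12 libraries. The calls in KO-labelled libraries (LPS against saline) ranged from 32 without KO-LPS replicate 2 to 1076 without KO-LPS replicate 1, beside 314 with all. The 7 genes called there ranged from 2 to 7, and family genes from 1 to 8 that rose and 0 to 4 that fell. In WT the family genes that fell ranged from 3 to 6. Genes called ranged from 0 to 31 for KO-labelled against WT in saline, 0 to 2 in LPS, and 0 to 7 for the difference of the responses. For KO-labelled against WT in LPS the log2 difference ranged from -2.34 to 0.051 for Lipg, -1.10 to 0.14 for Id2, -0.38 to 0.61 for Nos2, -1.04 to 2.67 for Saa3, -0.36 to 0.83 for Prnp and -1.72 to 0.11 for Fam20c, changing sign. None of the 7 was called for KO-labelled against WT in any alternative.

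Without the mean-variance trend, 363 genes were called in WT and 16 in KO-labelled libraries, beside 1095 and 314, with 5 of the 7 genes called in WT and 1 in KO-labelled libraries, 5 family genes rising and 1 falling in WT, 0 rising and 0 falling in KO-labelled libraries, and 0 genes for KO-labelled against WT in saline. With library quality weights, which gave KO-LPS replicate 1 the lowest weight (0.387), calls were 904 in KO-labelled libraries with 4 family genes falling, 17 for KO-labelled against WT in saline and 4 for the difference of the responses. With voom weights the last of these were 2 and 2, 5 of the 7 genes were called in KO-labelled libraries, 1 gene in LPS, and 0 family genes falling in KO-labelled libraries. With only the 2 groups compared, calls were 82 in KO-labelled libraries, with 2 family genes rising and 0 falling, and 22 in saline. With 2 reads added in place of 0.5, the median difference of the 7 was 4.19 in WT and 3.60 in KO-labelled libraries, as low counts shrink, and 4 genes were called in saline. The cause of the other moves was not tested. With only genes at or above the median level, 3 of the 7 (Lipg, Id2 and Nos2) were left and all 3 were called in both genotypes. The count models planned on recovered reads were not run, since the deposited values are log2.

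Over 18 pairs of libraries of the same replicate number, correlations of their deviations from group means ran from -0.07 to 0.04. Low counts limit this check, so it cannot show that such libraries had nothing in common. With the replicate number as a block, 1086 genes were called in WT, 336 in KO-labelled libraries, 1 for KO-labelled against WT in saline and 0 in LPS, and all 7 genes in both LPS comparisons. The replicate block changed no call among the 7 in any comparison, and family genes that rose went from 13 to 12 in WT and from 6 to 5 in KO-labelled libraries. Depth limits Saa3, Prnp and Lgals3bp, which had 1 read or none in saline.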
